A study of Gossypium hirsutum with 17 samples.

Results

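The transcript levels of cotton seedlings raised on alkaline medium were compared directly with those of seedlings raised on mannitol. The comparison took the 2 arrays labelled as alkalinity and the 3 arrays labelled as drought, 5 of the 17 arrays of the series, and 24029 of the 24132 probe sets of the Affymetrix Cotton Genome Array, since 103 Affymetrix control probe sets were left out. Both groups were seedlings of 1 line of Upland cotton (Gossypium hirsutum), raised on 1/2 MS medium (a mineral salt medium for plant culture) at 25 °C. From 4 days after germination the seedlings of the pH group stood for 10 days at pH 11 without mannitol, and those of the mannitol group for 10 days at pH 5.8 with 200 mM mannitol, so that both were taken at 14 days. The other arrays of the series held seedlings of the same age under no stress (control), 1 µM ABA, 4 °C in the last 2 days (cold) or 200 mM NaCl, with 3 arrays each. The labels name each array a biological replicate, whereas the study's methods state that RNA of the replicates was pooled for each treatment, so the p-values given here measure the spread between arrays, which may be technical. Seedlings hold roots, stems and leaves, and fewer cells of a type cannot be told apart from less RNA per cell.

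Mannitol is a sugar alcohol that lowers the water potential of the medium and stands in for drought. A strongly alkaline medium makes iron, phosphate and other nutrients hard to take up and disturbs the proton gradient across the plasma membrane of root cells. Plants answer both kinds of stress with transcription factors of the WRKY, MYB, NAC and ERF families, and with phenylpropanoids, among them lignin and flavonoids, that strengthen walls and protect cells.

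The 5 arrays were taken to log2 and given a common distribution (quantile normalization), and each value below is a log2 normalized signal unless a fold is named. Pearson's r between arrays, across probe sets, was 0.966 to 0.970 within the mannitol group, 0.949 between the 2 pH arrays and 0.934 to 0.940 between groups. The deposited signals of all 5 arrays had a 2% trimmed mean of 500.1, and their medians were 184 to 188 in the mannitol arrays and 189 and 156 in pH replicates 1 and 2. The log2 ratio of the 3' to the 5' probe sets of a control measures how intact and fully copied the RNA was. For a Gossypium hirsutum actin control it stood at 2.85 to 3.97 in mannitol and at 4.46 and 4.45 in pH. That of a ubiquitin control (ubq11) was also higher in both pH arrays, at 3.56 and 3.63 against 1.91 to 3.22. A second actin control overlapped, at 2.43 to 3.01 and at 2.12 and 3.54, as did a control named ss1, at 3.77 to 4.94 and at 4.72 and 3.83. The part of these ratios in the differences below was not tested.

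Far fewer transcripts separated the groups beyond the spread of the arrays than differed by size alone. A probe set was called where its group means differed by at least 2-fold and limma gave a p of 0.05 or less after Benjamini-Hochberg adjustment over all 24029 probe sets. By this rule 180 probe sets were called (0.749%), of which 68 were higher in pH (0.283%) and 112 were lower (0.466%). A fold of at least 2 whatever the p was shown by 3206 probe sets (13.3%). Both pH arrays lay above all mannitol arrays in 5353 probe sets (22.3%) and below them in 4647 (19.3%), and with a fold of at least 2 in 1145 (4.77%) and 1334 (5.55%). Where the 3 ABA arrays, deposited at the same trimmed mean, were added to estimate the spread, 561 probe sets were called (2.33%), 237 higher (0.986%) and 324 lower (1.35%). The difference of all probe sets had a median of 0.04 and ran from -1.24 at the 5th to 1.11 at the 95th percentile.

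The called transcripts that were lower in pH differed by more than those that were higher. The differences of the 112 lower probe sets ran from -12.14 to -1.38 with a median of -2.76, and 40 of them exceeded 10-fold. The 68 higher probe sets ran from 1.38 to 9.27 with a median of 2.17, and 9 exceeded 10-fold. In 63 of the 112 and 22 of the 68, the group with the lower level lay in the lowest 25% of all signals (below 5.46 on the log2 scale), where MAS5 values are close to the background of the array. Both groups lay there in 22 of the 112 and 11 of the 68. For the members described below whose lower group lay there, the log2 difference as measured is given without a fold, since its size depends on values near background. These counts rested on few arrays. Without 1 mannitol array, 0 to 2 higher and 0 to 1 lower probe sets were called, and without pH replicate 2, 1 and 8. Without pH replicate 1 the counts were 38 and 174.

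**Figure D1:**
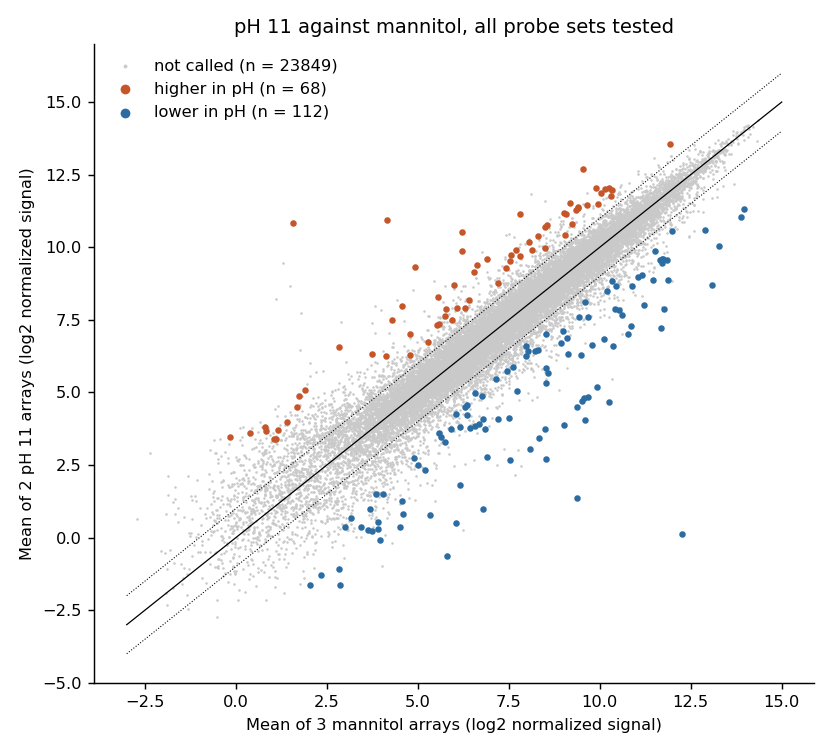
Mean log2 normalized signal of the 3 mannitol arrays (x axis) and of the 2 pH 11 arrays (y axis) for each of 24029 probe sets; the solid line marks equal levels and the dotted lines a fold of 2. The 68 called probe sets higher in pH lie above the lines and the 112 lower ones below, the farthest at a difference of -12.14.

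Most of the called transcripts had no name. Only 1507 of the probe sets tested carry a gene symbol or a name in the tables used here, and 17 of them were called (1.13%), 5 higher and 12 lower. The probe sets with the largest differences in both directions had none. GhiAffx.3966.1.S1_at stood at 2.20, 1.65 and 0.83 in the mannitol arrays and at 10.89 and 10.78 in the pH arrays, a measured difference of 9.27 (adjusted p = 0.0114). GhiAffx.60900.1.S1_at stood at 4.31, 3.93 and 4.24 in mannitol and at 10.89 and 11.00 in pH, a measured difference of 6.79 (adjusted p = 0.00430). In both, the pH arrays lay far above every mannitol array, and the mannitol arrays were near background.

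Ghi.5768.1.S1_s_at was the reverse. Its deposited signals were 4740, 5266 and 4248 in mannitol, among the brighter values of those arrays, and 0.9 and 1.1 in pH. On the log2 scale the mannitol arrays gave 12.29, 12.39 and 12.07 and the pH arrays -0.21 and 0.43 (adjusted p = 0.00214). The pH signals were far under the array medians, so that the size of this fold is not defined by the data. In the control, ABA, cold and NaCl arrays, on the scale of all 17 arrays, the same probe set averaged 8.74 to 11.39, and in pH -1.20.

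Among the named transcripts called higher in pH was DFR, dihydroflavonol reductase, an enzyme of flavonoid synthesis that acts on the way to anthocyanins and condensed tannins. It stood at 9.33, 9.24 and 9.43 in the mannitol arrays and at 11.03 and 11.51 in the pH arrays. All pH values lay above all mannitol values, and the 3.84-fold difference passed (1.94 ± 0.21, SE, adjusted p = 0.0424). The probes of this set can match several closely related transcripts.

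A putative Myb-related transcription factor was also called higher. Its mannitol arrays gave 5.59, 5.54 and 5.41 and its pH arrays 7.55 and 7.12, 3.52-fold higher (adjusted p = 0.0427). MYB proteins are DNA-binding factors, several of which switch on flavonoid genes in other plants. Of the 30 probe sets named as MYB it was the 1 that was called, where 0.749% of all were, and the median difference of the family was 0.09. Another MYB family factor stood at 8.94, 8.48 and 8.96 in mannitol and lower in pH, at 7.40 and 5.21. Its difference of -2.49 was not called (adjusted p = 0.148).

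3 further named transcripts were called higher in pH. A lipase-like carboxylic ester hydrolase, of a kind that splits ester bonds of lipids, stood at 5.84, 6.16 and 6.02 in mannitol and at 8.59 and 8.84 in pH, 6.54-fold higher (adjusted p = 0.0277, but 0.0853 with the 3 ABA arrays added). A transferase, whose name does not say what it transfers, stood at 6.62, 6.80 and 6.50 against 9.78 and 8.97, 6.68-fold higher (adjusted p = 0.0418). In both, the lowest pH array was more than 2 log2 units above the highest mannitol array.

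LOC107935406 was the third. The probe set called gave 5.96, 5.94 and 5.91 in mannitol and 7.50 and 7.47 in pH (1.55 ± 0.14, SE, adjusted p = 0.0338, but 0.0897 with the 3 ABA arrays added). The arrays of each group were nearly equal, and the groups did not overlap. Another 2 probe sets of this gene carry the name WRKY DNA-binding protein 31, and their differences of 0.98 and 0.70 were not called (adjusted p = 0.208 and 0.187), nor was that of a further probe set, 0.71 (adjusted p = 0.417).

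LOC107887176, for which no role is given in the tables used here, was called lower in pH by all 3 of its probe sets. The first stood at 13.10, 13.06 and 13.12 in the mannitol arrays and at 9.01 and 8.35 in the pH arrays, 21.2-fold lower (-4.41 ± 0.24, SE, adjusted p = 0.0196). Another stood at 13.19, 13.20 and 13.44 against 10.21 and 9.86 (adjusted p = 0.0205), and the last at 9.52, 10.65 and 10.60 against 4.60 and 4.78 (adjusted p = 0.0277). By their design codes the probes of all 3 can match several transcripts, so that they may share signal with related genes.

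4 further genes, for which no role is given either, were called lower by 3.07 or more on the log2 scale. LOC107898995 stood at 8.83, 10.16 and 9.75 in mannitol and at 5.0 and 4.60 in pH (-4.78 ± 0.44, SE, adjusted p = 0.0338), and its second probe set differed by -5.99 (adjusted p = 0.0541). LOC107889504 stood at 7.40, 6.57 and 6.72 against 2.50 and 3.09 (-4.10 ± 0.34, SE, adjusted p = 0.0316), whereas its second probe set, at 4.48 to 5.46 in mannitol, differed by only -0.70 (adjusted p = 0.309). LOC107934283 and LOC107942352 were near background in every array, at most 3.87, and were called at -3.92 and -3.07, the former not with the 3 ABA arrays added (adjusted p = 0.102). A second probe set of LOC107934283 read 12.18 to 12.62 in all 5 arrays and was not called, so that the 2 probe sets of this gene gave different pictures.

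Scarecrow-like protein 5, a GRAS family transcription factor named for its likeness to the root patterning gene SCARECROW, was also called lower. The probe set gave 6.67, 6.23 and 6.13 in mannitol and 4.14 and 4.31 in pH, a difference of -2.12 ± 0.22 (SE, adjusted p = 0.0421, but 0.116 with the 3 ABA arrays added). A brighter probe set of the same name had a difference of -0.95 ± 0.27 (SE, adjusted p = 0.158), again with both pH arrays below all mannitol arrays. MatP7 stood at 6.37, 6.01 and 6.51 against 4.53 and 4.44 (-1.81 ± 0.21, SE, adjusted p = 0.0481). LOC107928466 differed by -1.73 (adjusted p = 0.0424), and 2 unknown proteins by -3.76 and -1.38.

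**Figure D2:**
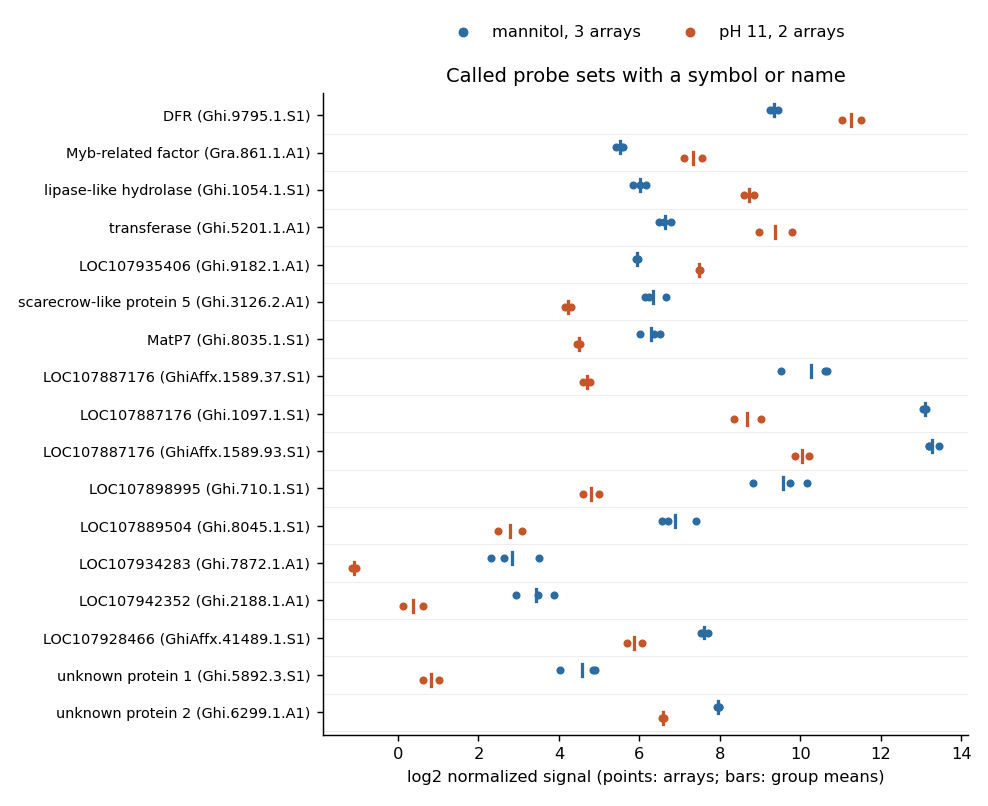
Log2 normalized signal (x axis) of the 17 called probe sets that carry a symbol or name (y axis), 5 higher and 12 lower in pH 11; points are arrays, 3 for mannitol and 2 for pH 11, and short bars are group means. In every probe set drawn the points of the 2 groups do not overlap.

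The place of the control seedlings among the called transcripts differed from gene to gene. For this, all 17 arrays were normalized together, which puts values on another scale than above, and the places are given as a description. The control, cold and NaCl arrays were deposited at trimmed means of 18.5 to 140 against 500.1 for ABA, mannitol and pH, so that levels set against control rest on this normalization. Of the 68 called higher in pH, the control mean lay between mannitol and pH for 41, below both for 17 and above both for 10. Of the 112 called lower, it lay between for 71, above both for 30 and below both for 11. pH had the highest mean of all 6 conditions for 47 of the 68 (17.6% of all probe sets) and the lowest for 83 of the 112 (17.1%). Mannitol had the lowest mean for 33 of the 68 (15.1% of all) and the highest for 57 of the 112 (11.5%). The choice of the probe sets favours these places.

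DFR was at 6.96 in control, 7.96 in mannitol and 10.11 in pH, and the Myb-related factor at 4.34, 4.12 and 5.88 in the same order. The mannitol arrays of DFR lay above all control arrays and far below the pH arrays, and those of the Myb-related factor stood near control. LOC107887176 showed the other pattern, since the first of its probe sets was at 8.31 in control, 7.26 in pH and 12.18 in mannitol. LOC107898995 (5.63, 3.44 and 8.24) and LOC107889504 (2.68, 1.29 and 5.45) had their control means nearer to pH as well. MatP7 was at 4.89 in control, 4.87 in mannitol and 3.12 in pH. The called probe set of scarecrow-like protein 5 was at 6.76 in cold and 2.25 in control, whereas the brighter one was at 8.07 and 9.17.

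**Figure D3:**
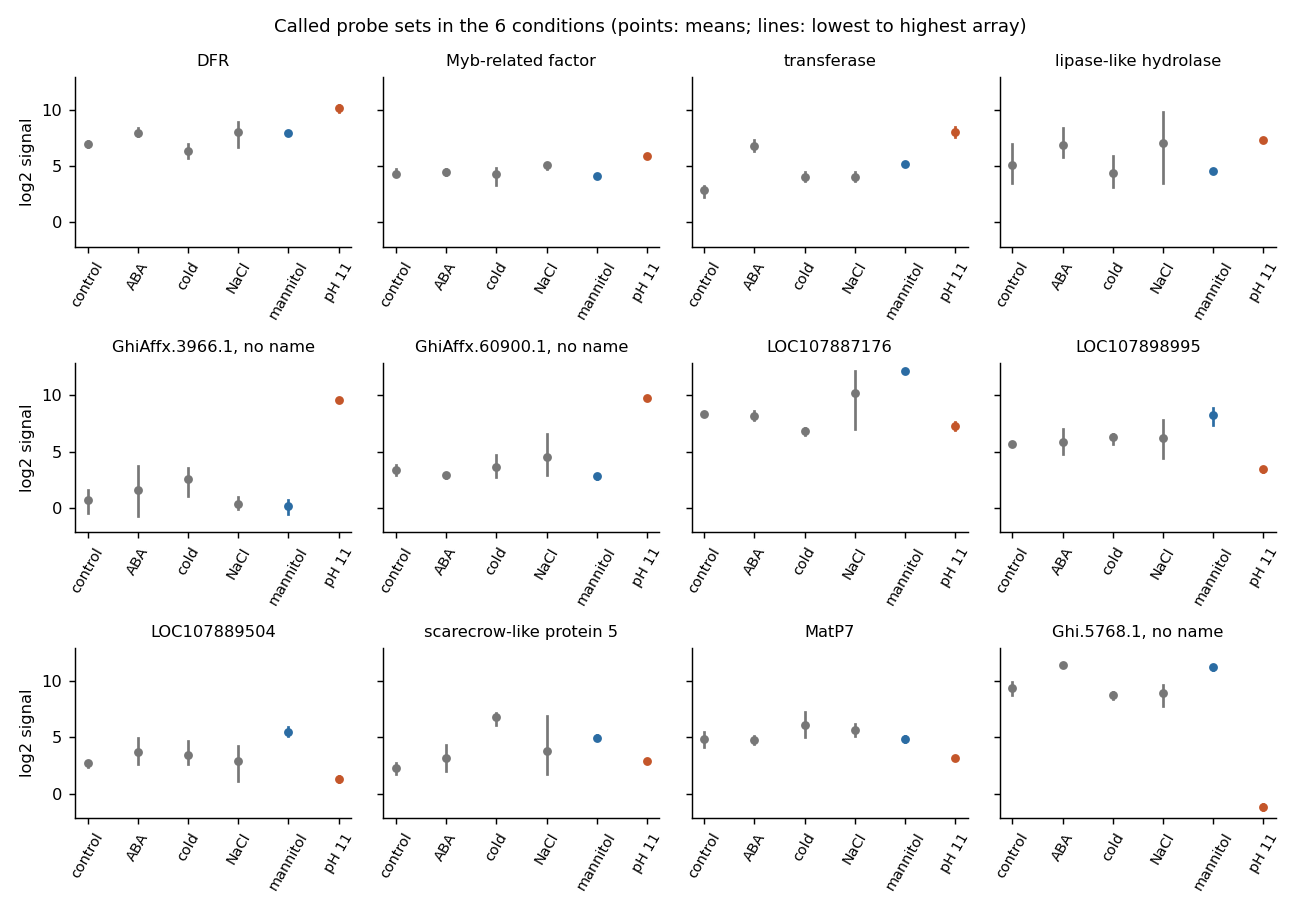
Mean log2 signal (y axis) of 12 called probe sets in the 6 conditions (x axis), with all 17 arrays normalized together; points are means of 3 arrays (2 for pH 11) and lines run from the lowest to the highest array. DFR is highest in pH 11 at 10.11, LOC107887176 is highest in mannitol at 12.18, and the unnamed probe set in the last panel is low in pH 11 alone.

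Beside DFR, both phenylalanine ammonia-lyase genes of the phenylpropanoid list stood higher in pH without passing the test. PAL1, of the enzyme that opens the pathway to lignin and flavonoids, gave 8.53, 8.74 and 8.66 in mannitol and 10.21 and 10.82 in pH, a 3.66-fold difference (1.87 ± 0.24, SE, adjusted p = 0.0541). PAL2 gave 8.44, 7.89 and 8.65 against 10.09 and 10.41 (3.78-fold, adjusted p = 0.0661). Both passed with the 3 ABA arrays added (adjusted p = 0.0265 and 0.0291). The other 4 of the 6 probe sets of the phenylpropanoid list, among them CCR1 of lignin synthesis and a 4-coumarate-CoA ligase, differed by -0.49 to 0.11.

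Several defence transcripts were placed in the same way. PR1, a secreted protein used as a marker of salicylic acid responses in Arabidopsis, stood at 8.65, 9.55 and 7.28 in mannitol and at 11.89 and 11.29 in pH by 1 probe set (3.09 ± 0.70, SE, adjusted p = 0.115) and differed by 3.08 by another. The mannitol arrays differed widely among themselves for this gene, and the 2 groups still did not overlap. The 3 probe sets of the chitinase ATEP3, an enzyme that cuts fungal wall polymer, differed by 0.92 to 1.21. Of the 11 probe sets of the defence list, 0 were called, where 0.749% of all were, and the median was 0.83. At least 2-fold above with no overlap between groups lay 3 (4.77% of all probe sets did), and 0 lay below so (5.55%).

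Peroxidases, which use hydrogen peroxide to cross-link wall phenolics among other substrates, varied by gene. pod7 stood at 7.63, 8.27 and 7.47 in mannitol and at 9.99 and 10.00 in pH (2.21 ± 0.28, SE, adjusted p = 0.0564), and pod6 differed by 1.70 (adjusted p = 0.134). POX10 differed by 1.03 and POX9 by -1.25, and neither passed (adjusted p = 0.0732 and 0.135). The oxidative defence list holds POX10 and POX9 but not pod7 or pod6. Of its 10 probe sets 0 were called, where 0.749% of all were, and the median was 0.39. At least 2-fold above with no overlap between groups lay 3 (4.77% of all probe sets did), and 1 lay below so (5.55%).

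The sterol enzyme squalene monooxygenase was represented by 3 probe sets, which all stood higher in pH. The clearest gave 6.97, 6.75 and 7.21 in mannitol and 8.55 and 8.45 in pH (1.52 ± 0.20, SE, adjusted p = 0.0573), and the other 2 differed by 1.49 and 1.79. None passed, although the clearest did with the 3 ABA arrays added (adjusted p = 0.0489), and HMG-CoA reductase of the earlier pathway differed by -0.16 and -0.12. MTO1, the cystathionine gamma-synthase that commits carbon to methionine in Arabidopsis, had the largest difference among the informatively named transcripts above the array median whose pH values were higher, 3.40 ± 0.81 (SE, adjusted p = 0.122). Its mannitol arrays ranged from 4.21 to 6.73.

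The vitamin B1 genes, which the text of the study discusses, differed by 0.10 to 1.31 over 4 probe sets. Of these, 0 were called, where 0.749% of all were, and 2 lay at least 2-fold above with no overlap between groups (4.77% of all). The thiazole biosynthetic enzyme stood at 10.75, 10.12 and 10.55 in mannitol and at 11.46 and 11.99 in pH (adjusted p = 0.114). On the scale of all 17 arrays both groups lay above control, at 9.22 in mannitol and 10.62 in pH against 4.92.

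Cell wall genes went both ways. Of 40 probe sets 24 were lower in pH and 16 higher, where 11333 of all 24029 were lower. Their differences ran from -3.76 to 2.10. The median was -0.19, and 0 of the 40 were called, where 0.749% of all were. At least 2-fold below with no overlap between groups lay 10 (5.55% of all probe sets did), and 3 lay above so (4.77%). The fasciclin-like arabinogalactan proteins, surface proteins tied to wall deposition in fibres and stems, led those below. FLA13 stood at 9.60, 9.0 and 9.13 in mannitol and at 7.56 and 6.85 in pH (-2.04 ± 0.31, SE, adjusted p = 0.0690). FLA6 gave 10.81, 10.71 and 10.93 against 9.44 and 8.52 (adjusted p = 0.0780). Both passed with the 3 ABA arrays added (adjusted p = 0.0244 and 0.0278), and a probe set of FLA12 and that of FLA4 differed by -0.91 and -0.89. Others of the family lay near 0 or on the other side, with FLA18 at 0.06, 3 probe sets of FLA19 at 0.08 to 0.41 and FLA16 at 0.83. Outside the family, beta-xylosidase 1 stood at 7.26, 7.14 and 6.55 in mannitol and higher in pH, at 9.04 and 8.36 (1.71, adjusted p = 0.0922).

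Other wall genes were low in 1 pH array more than in the other. CesA1, a cellulose synthase subunit, stood at 10.20, 10.01 and 10.17 in mannitol, at 9.41 in pH replicate 1 and at 7.43 in pH replicate 2. FLA7 read 10.96 to 11.08 in mannitol and 10.32 and 8.19 in pH, and CTL1, a chitinase-like protein needed for cellulose synthesis in Arabidopsis, 11.13 to 11.58 against 10.94 and 7.99. The sucrose synthase susC, which supplies the sugar nucleotide for cellulose, read 9.57 to 10.01 against 8.83 and 7.27. For these 4 genes the pH arrays lay below all mannitol arrays, by differences of -1.71 to -1.94 that did not pass (adjusted p = 0.152 to 0.298), and pH replicate 2 carried most of each difference.

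The expansin EXPA13D, a wall-loosening protein, gave opposite readings by its probe sets. The brightest stood at 10.11, 10.32 and 9.87 in mannitol and at 8.37 and 8.80 in pH (-1.52, adjusted p = 0.0692), and another differed by -1.23 (adjusted p = 0.0578). The last of the same gene differed by 1.27 (adjusted p = 0.0991), with its pH arrays above all mannitol arrays. The cytoskeleton genes FRA1, a kinesin that guides wall deposition in Arabidopsis, and ACT11, an actin, differed by -1.30 ± 0.18 and -1.24 ± 0.17 (SE, adjusted p = 0.0578 and 0.0597).

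**Figure D4:**
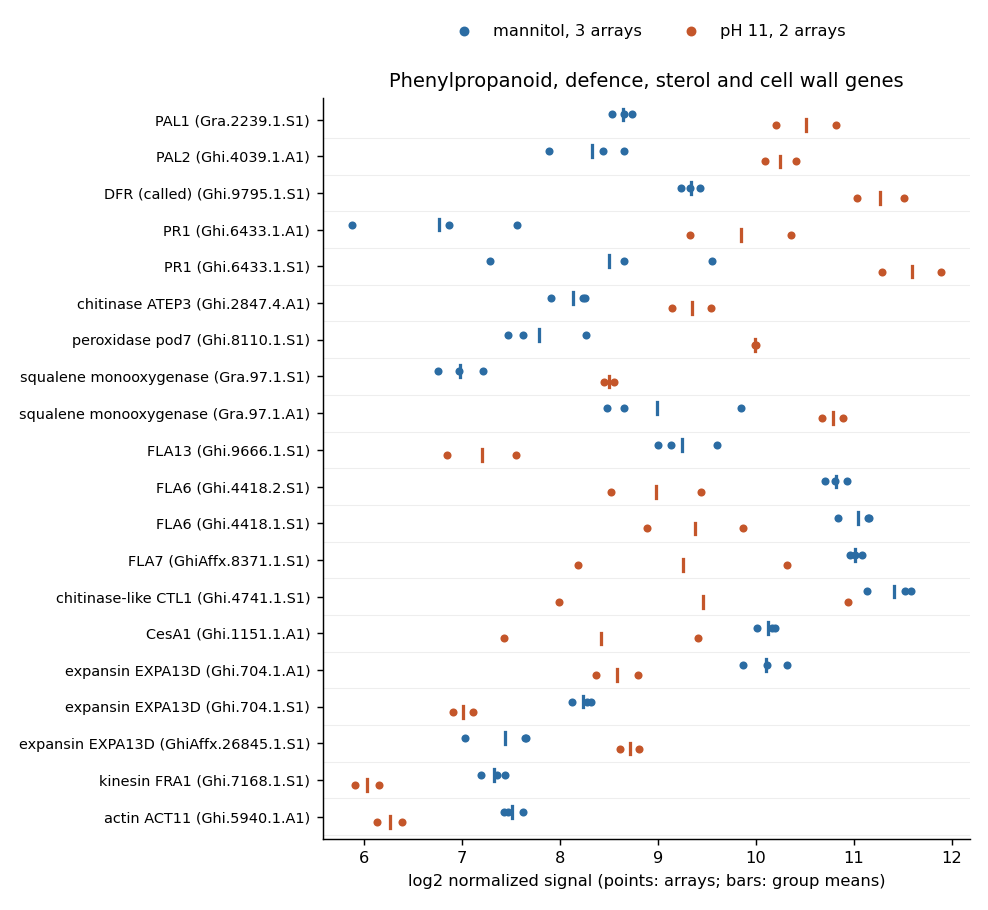
Log2 normalized signal (x axis) of phenylpropanoid, defence, sterol, cell wall and cytoskeleton probe sets (y axis); points are arrays, 3 for mannitol and 2 for pH 11, and short bars are group means. Only DFR was called, PR1 is spread over 7.28 to 9.55 in mannitol in its brighter probe set, and CesA1, FLA7 and CTL1 have 1 low pH array each.

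Apart from the Myb-related factor, scarecrow-like protein 5 and the probe set of LOC107935406 above, no named transcription factor was called. Among 33 WRKY probe sets, 26 stood higher in pH and 7 lower, where 12696 of all 24029 stood higher. Their median was 0.38 against 0.04 over all probe sets, and they ran from -2.10 to 1.53. At least 2-fold above with no overlap between groups lay 4 (4.77% of all probe sets did), and 3 lay below so (5.55%). Some genes, such as WRKY33, have more than 1 probe set among them. WRKY33, a regulator of camalexin and pathogen responses in Arabidopsis, gave 9.63, 8.79 and 9.03 in mannitol and 10.81 and 10.55 in pH (1.53 ± 0.30, SE, adjusted p = 0.0941), and WRKY70 gave differences of -1.41 to 0.62 over its probe sets. NAC10 differed by 1.74 and the heat stress factor B-2a by 1.35 (adjusted p = 0.0700 and 0.0573). The 41 AP2/ERF probe sets had a median of -0.22, with RAP2-12, a factor of low oxygen responses in Arabidopsis, at 9.81 to 9.92 in mannitol and 8.31 and 8.82 in pH (adjusted p = 0.0723).

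The bZIP protein G-box binding factor 6 came closest among the lower factors. It stood at 11.08, 10.97 and 10.92 in mannitol and at 9.08 and 9.53 in pH (-1.68 ± 0.20, SE, adjusted p = 0.0516). The zinc finger protein ZFP1 differed by -2.64 (adjusted p = 0.101), the small GTPase Rac9 by -2.21 (adjusted p = 0.108) and the germin-like protein Glp1 by -2.20 (adjusted p = 0.0758). With the 3 ABA arrays added, G-box binding factor 6, ZFP1 and Rac9 passed (adjusted p = 0.0255, 0.0414 and 0.0497) and Glp1 did not (adjusted p = 0.0578).

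Of the lists for the drought hormone ABA, for dehydration and for ion transport, 0 of 13, 0 of 5 and 0 of 7 probe sets were called, where 0.749% of all were, so that the lists are too small for their counts to be read. The 13 probe sets of ABA signalling and protein phosphatases 2C had a median of 0.00, from -1.32 for a probe set like ABI2, a phosphatase that restrains ABA signalling, to 0.41. The 5 of dehydration and LEA proteins, which protect drying cells, ranged from -0.74 to 0.73. The potassium channel AKT1 stood at 8.60, 8.41 and 8.47 in mannitol and at 7.68 and 7.58 in pH (-0.87 ± 0.16, SE, adjusted p = 0.0836), and the antiporter NHX1, which loads sodium or potassium into vacuoles, differed by -0.22. ADH1, alcohol dehydrogenase, stood at 9.26, 9.0 and 9.20 against 8.07 and 8.46 (adjusted p = 0.114).

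Of the nutrient and light genes, the ZIP10 cation transporter differed by 1.37 (adjusted p = 0.188). It read 8.09 and 6.71 in its pH arrays and 5.87 to 6.29 in mannitol. The nitrate transporter 1.4 differed by -0.22 and -0.16, and a nitrate reductase by -0.88. Another nitrate transporter stood at 7.99 and 9.29 in pH against 7.07 to 7.71 (1.24, adjusted p = 0.218). A putative glutamine synthetase differed by 1.07 (adjusted p = 0.115). These 5 probe sets form the nitrate and phosphate list, of which 0 were called, where 0.749% of all were. At least 2-fold above with no overlap between groups lay 2 of the 5 (4.77% of all probe sets did), and 0 lay below so (5.55%). The list is too small for these counts to be read. A protein like SEX4, a phosphatase of starch breakdown in Arabidopsis, was the farthest of 14 starch probe sets at -1.96 ± 0.31 (SE, adjusted p = 0.0713), and 10 of the 14 were negative. All 9 auxin probe sets lay between -0.85 and 0.05. The 39 probe sets of MAP kinases and calcium signalling had a median of 0.06, and 2 probe sets of a putative calcium-dependent protein kinase differed by 0.41 and 0.48 (adjusted p = 0.466 and 0.241).

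**Figure D5:**
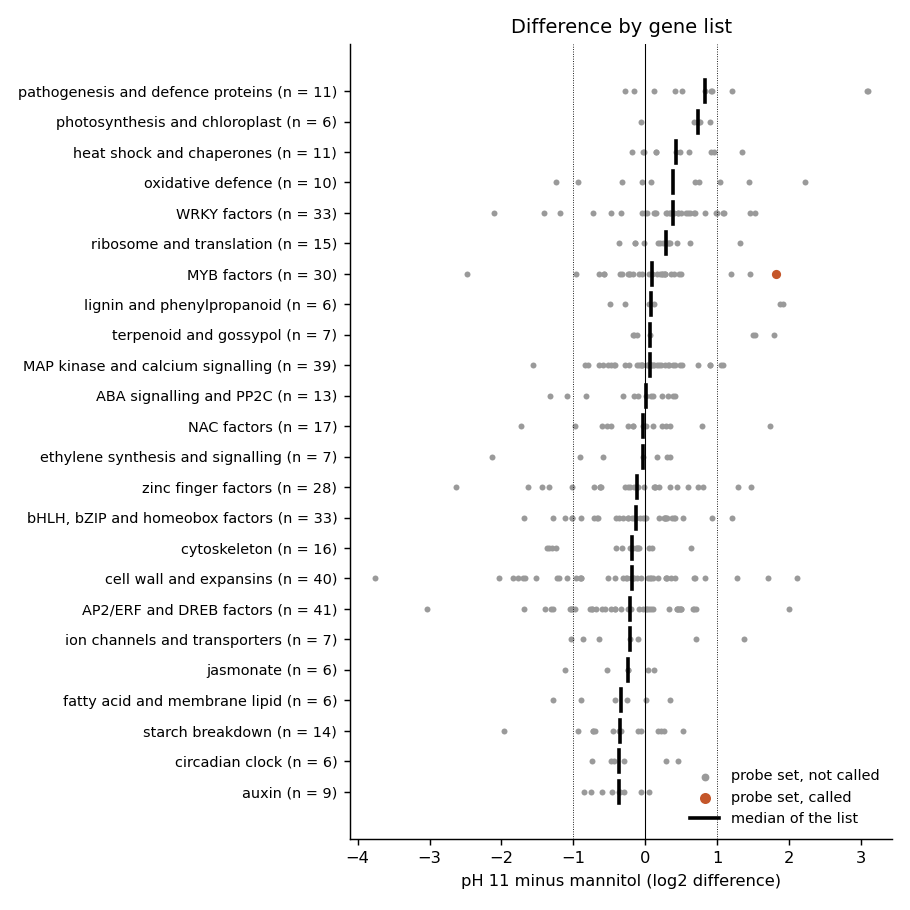
Log2 difference, pH 11 minus mannitol (x axis), of each probe set in the gene lists with at least 6 members (y axis, with the number of probe sets); grey points were not called, the orange point was, and black bars are list medians. Defence proteins have the highest median at 0.83, and the single called member is the Myb-related factor at 1.82.

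Marker lists were read for a shift in the mix of organs. The log2 of the summed signal of 29 housekeeping probe sets was 16.21 to 16.35 in mannitol and 16.28 and 16.19 in pH. The 2 probe sets taken for seed reserves summed to 14.22 to 14.34 in mannitol and to 14.31 and 14.25 in pH. They were Lea14-A (-0.74, adjusted p = 0.118) and Lea5-D (0.13, adjusted p = 0.658). Both are also in the dehydration list, so that their sum cannot tell the mix of organs from a dehydration response. The 22 fibre and trichome probe sets, most of them for the FLA genes above, summed to 14.35 to 14.50 in mannitol and to 14.15 and 13.73 in pH, and the 8 root probe sets, which include scarecrow-like protein 5, to 11.62 to 11.93 against 11.55 and 11.41. The 1 green tissue probe set, of photosystem II, read 7.84 to 8.57 and 9.96 and 8.25. The fibre and root sums were lower in both pH arrays than in any mannitol array, and their part in the differences of wall genes and of scarecrow-like protein 5 was not tested.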

How the data were processed

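The authors obtained labelled RNA from the seedlings, hybridized it to the Affymetrix Cotton Genome Array and summarized the probes with MAS5, for which no version is given in the sources used here. The deposited values are signal intensity on a linear scale, and no detection calls were used. The members and gene lists were chosen with earlier results of these data known.

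Control probe sets of the maker were left out and log2 was taken with no offset and no filter. The 3 mannitol and 2 pH arrays were quantile normalized together. Group means were fitted with limma 3.58.1 (lmFit, eBayes) under R 4.3.3, with no covariate, on 3 residual degrees of freedom, and errors are eBayes standard errors. SAM, which the study's methods name, was kept as an alternative because 2 against 3 arrays allow only 10 splits. For the same reason an exact permutation test cannot give a p under 0.1, and none was used. The number of arrays limits the precision.

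Names came from the platform annotation (697 probe sets with 1 gene symbol, 46 with several, the rest unnamed there), with synonyms from the RefSeq table of assembly Gossypium_hirsutum_v2.1, and for 810 more from the study's supplementary tables, of which names alone were read. Lists were made by name patterns, and members that a pattern took by chance spelling were removed by name after the values were seen. The rule for describing probe sets took every called one with a symbol or name. It also took 15 per direction with an informative name, a level above the array median, no overlap between groups and the largest differences. Further ones were the top 3 by adjusted p in a list, the top 10 of the array, and those that the study's text discusses.

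On simulated data for pH against mannitol with 24029 probe sets, limma found 48 of 100 log2 shifts of 1.5 and 81 of 100 log2 shifts of 3, with 5 false calls. SAM found 22 and 84, with 4 false calls. The shifts were placed only in probe sets above the median mannitol level, with normal noise independent between arrays and all other probe sets unchanged. These figures therefore do not cover signals near background or a comparison with many changed transcripts. Other settings tried were SAM, p without adjustment, folds of mean linear signals, values as deposited, centring on medians, adding 32 before log2, dropping the lowest 25% of signals, including ABA (8 arrays) or all 17 arrays in the fit, a trended prior variance, a block for replicate number, and 1 array removed in turn. Plots were made in Python 3.11.15 with matplotlib 3.10.9.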

Additional observations from a re-analysis of the deposited data

How the results depend on the processing

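The main counts were 68 probe sets higher and 112 lower in pH. SAM called 9 and 26, an offset of 32 before log2 gave 324 and 436, leaving out the lowest 25% of signals 383 and 499, the fit to 8 arrays 237 and 324, a variance trend 442 and 631, and the unadjusted p 949 and 1155. Median centring gave 76 and 125, the deposited scale 61 and 141, and fold from mean linear signals 68 and 112. The fit to 17 arrays called 53 and 82, of which 22 and 36 were among the main calls. Leaving out 1 array in turn gave 0 to 38 higher and 0 to 174 lower. The replicate block called 0 and 0, with 1 residual degree of freedom. Deviations from the group means correlated by -0.0029 between the arrays numbered 1 and by 0.037 between those numbered 2. With 2 pH arrays the deviations of 1 mirror those of the other, so these values cannot settle whether the numbers pair the arrays. The cause of these shifts was not tested. Leaving out the lowest 25% of signals took 16 of the 68 higher and 34 of the 112 lower calls out of the fit. They were not tested there. Of the calls described above, those taken out were the called probe sets of LOC107889504, LOC107934283, LOC107942352 and the unknown protein at -3.76, and GhiAffx.3966.1.S1_at. The rule for describing probe sets took 27 calls, some of them unnamed and not printed here. Of these 27 the block lost 27, the fit to 17 arrays 15 and SAM 13. The deposited scale lost 5, the fit to 8 arrays 4, the offset 3 and median centring 1 of the 27 calls. Leaving out a mannitol array or pH replicate 2 lost 25 to 27 of them, and leaving out pH replicate 1 lost 13. Among all probe sets that the rule took, called or not, 1 changed direction in any of these fits. It was a calcium-dependent protein kinase, which differed by 0.41 with all arrays, by -0.0167 without pH replicate 1 and by 0.82 without pH replicate 2. With 2 and 3 arrays, signals near background have little precision, and detection calls were not used here.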
